A study of Mus musculus with 18 samples.

Results

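Pan-neuronal genes are genes that most neurons use whatever their type. A set of 34 of them was followed by gene symbol in 3 RNA-seq tables of whole embryonic mouse lung, each table holding 23420 genes. The set was drawn up because neuronal genes were higher in 1 of the 3 comparisons, that of Wnt5a mutants made with Dermo1Cre, so the values of that comparison are given as a description with no test, and tests are given only for the other 2. A gene entered a fit when 3 or more of the 6 libraries of a table held 10 normalized counts or more. That minimum was met by 32 of the 34 genes in the Vangl table and by 33 in each Wnt5a table.

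Each of the 3 experiments compared 3 control with 3 mutant libraries. In the first, lungs at embryonic day E12.5 labelled Vangl1-/-; Vangl2-/- were set against lungs labelled Vangl1-/-, so that both groups of that table carried the Vangl1 alleles, a gene trap in this study, and the comparison was of Vangl2 loss. In the second, also at E12.5, Wnt5a f/f; Dermo1Cre lungs were set against Wnt5a f/+; Dermo1Cre lungs. Dermo1Cre is a knock-in at Twist2 and recombines in the lung mesenchyme. In the third, at E13.5, Wnt5a f/f; Sox9Cre lungs were set against Wnt5a f/+; Sox9Cre lungs. Sox9Cre is a knock-in at Sox9 and recombines in the lung epithelium. Both Wnt5a control groups thus carried the Cre and 1 floxed Wnt5a allele. How many embryos went into a library is not given in the sources used here, so the p-values measure the spread between these libraries, which may be technical in part.

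The lung bud makes no neurons of its own. Neural crest cells reach it along the vagus nerve and form intrinsic ganglia beside the airways, while axons of vagal sensory and autonomic neurons grow in from outside. An axon carries some messenger RNA, but most transcripts of a neuron lie in its cell body. By role, 13 of the 34 genes serve the neuronal cytoskeleton and growth cone, 7 the synaptic vesicle and its release, and 5 the dense-core granule. Another 3 encode RNA-binding proteins or a noncoding RNA, and 6 act in signalling, adhesion or other neuronal functions. In a whole-organ library, fewer cells of a type and less RNA per cell cannot be told apart.

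The libraries held 15945393 to 19814346 reads on genes. Among the targeted genes, Vangl2 had 277, 406 and 334 normalized counts in the controls and 86.5, 79.8 and 89.6 in the mutants of the Vangl table, a log2 difference of -1.96 (limma, adjusted p = 0.0318). Its adjusted p was over 0.05 in 5 of the 6 fits that left out 1 library, all but the one without control 2. Vangl1, which the labels give as absent from all 6, still had 113 to 274 normalized counts. Wnt5a was 464 ± 30.8 (SD, n = 3) in controls and 327 ± 103 (SD, n = 3) in mutants with Dermo1Cre, and 451 ± 23.5 against 417 ± 48.0 (SD, n = 3) with Sox9Cre. Its ranges overlapped in both tables. Over all genes, control 2 of the Vangl table stood farthest from its group. Its values differed from the mean of the other 2 controls by a median of 0.311 (absolute log2), against 0.076 to 0.224 for the other 17 libraries, and by 0.271 more per doubling of transcript length. Markers of the labelled tissue were present throughout, the summed level of 7 lung epithelial markers lying between 10820 and 13254 normalized counts and that of 7 mesenchymal markers between 25462 and 52902.

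The promoter sequences of these genes are shown first. Whether they bear on the values given below was not tested. RefSeq windows from 250 bases before to 50 bases after a transcription start (GRCm38.p6) were found for 26 of the 34 genes. No window was matched for Nefl, Nefm, Mapt, Stmn2, Stmn4, Gap43, Snap25 or Syt4. The full cAMP response element, TGACGTCA, lay in the windows of 4 of these 26 genes, 15.4%, against 2.03% of all 27025 genes with a window. These 4 were Scg2 and Chgb, which encode granins stored in dense-core granules, Syn1, which encodes the vesicle protein synapsin I, and Mapk10, which encodes the neuronal JNK3 kinase. The 250 bases before each start follow, 5′ to 3′ on the gene's own strand, with the cAMP response element in capitals; in Syn1 another capital stretch, TTCAGCACC, is the left part of RE1, the element read by the repressor REST. The Scg2 window is chr1:79440027-79440276 (- strand), that of Chgb chr2:132781392-132781641 (+ strand), that of Syn1 chrX:20920919-20921168 (- strand) and that of Mapk10 chr5:103211335-103211584 (- strand).
Scg2: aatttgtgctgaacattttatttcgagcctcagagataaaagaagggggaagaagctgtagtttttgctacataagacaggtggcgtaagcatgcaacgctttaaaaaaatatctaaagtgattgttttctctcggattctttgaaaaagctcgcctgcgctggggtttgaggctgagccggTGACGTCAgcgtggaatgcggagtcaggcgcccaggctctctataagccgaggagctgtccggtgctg
Chgb: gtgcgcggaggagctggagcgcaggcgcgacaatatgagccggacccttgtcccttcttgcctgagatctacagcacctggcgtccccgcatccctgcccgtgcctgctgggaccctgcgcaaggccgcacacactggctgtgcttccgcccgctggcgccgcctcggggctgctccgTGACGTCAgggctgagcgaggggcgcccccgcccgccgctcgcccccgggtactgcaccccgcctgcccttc
Syn1: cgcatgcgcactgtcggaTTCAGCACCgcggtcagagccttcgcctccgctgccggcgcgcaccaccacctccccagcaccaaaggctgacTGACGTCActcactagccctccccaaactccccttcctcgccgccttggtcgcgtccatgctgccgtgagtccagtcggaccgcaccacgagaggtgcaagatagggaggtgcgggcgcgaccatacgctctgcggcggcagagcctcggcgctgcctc
Mapk10: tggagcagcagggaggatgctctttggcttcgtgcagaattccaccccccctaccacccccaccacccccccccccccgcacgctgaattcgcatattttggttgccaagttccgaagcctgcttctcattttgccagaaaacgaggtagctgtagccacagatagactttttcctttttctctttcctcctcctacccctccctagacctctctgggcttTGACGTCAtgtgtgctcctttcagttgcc
The first base of the element lay 68 bases before the start in Scg2, 72 in Chgb, 159 in Syn1 and 29 in Mapk10.

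Tubb3 and Elavl3, which encode the neuron-specific tubulin and an RNA-binding protein of early neurons, are shown as members whose windows held no cAMP response element. In these, capitals mark the GC box GGGCGG and the TATA core TATAAA on either strand. The windows are chr8:123411303-123411552 (+ strand) and chr9:22052024-22052273 (- strand).
Tubb3: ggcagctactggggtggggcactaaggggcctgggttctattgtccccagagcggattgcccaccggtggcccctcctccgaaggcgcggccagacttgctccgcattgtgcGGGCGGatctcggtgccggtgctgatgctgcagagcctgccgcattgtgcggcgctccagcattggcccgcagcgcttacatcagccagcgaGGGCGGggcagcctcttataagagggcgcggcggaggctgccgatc
Elavl3: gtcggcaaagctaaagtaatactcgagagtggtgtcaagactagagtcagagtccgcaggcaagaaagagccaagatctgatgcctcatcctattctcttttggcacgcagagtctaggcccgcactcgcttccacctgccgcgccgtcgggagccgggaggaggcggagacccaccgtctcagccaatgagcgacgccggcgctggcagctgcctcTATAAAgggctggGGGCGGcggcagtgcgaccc
Across the 26 genes with a window, the other letters searched, on both strands, were found at the following shares. The shorter element TGACGT, which the full one contains, was in 26.9% of members and 8.37% of all genes. The GC box was in 53.8% and 38.2%, the TATA core in 15.4% and 15.7%, CCAAT in 38.5% and 41.1%, the E-box CAGATG in 23.1% and 19.2%, and the AP-1 site TGACTCA in 0.0% and 5.95%. TTCAGCACC was in 7.69%, that is in Syn1 and Scg2, and in 0.433% of all genes. In Scg2 it straddles the start. The median GC content of the windows was 57.3% for members and 52.7% for all. Such matches are letters in a window of fixed length, and nothing about a factor's binding was measured.

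In the Dermo1Cre experiment all 34 genes had a higher mean in mutants than in controls, on the log2(normalized count + 1) scale used for every log2 value here. The median log2 difference of the 33 genes that met the minimum was 1.66, beside 0.0007 for all 14277 genes tested. The values of the 3 mutants lay above those of the 3 controls for 24 of the 33, where 7.65% of all genes tested did so, a count that the choice of the set shapes. None lay wholly below the controls, where 7.92% of all genes tested did. Ppp1r1c met the minimum only through the mutants, and Scg2 did not meet it. The smallest log2 difference was that of Map2 (0.26) and the largest that of Ppp1r1c (3.26), whose controls held 2.01 to 4.95 normalized counts.

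**Figure D1:**
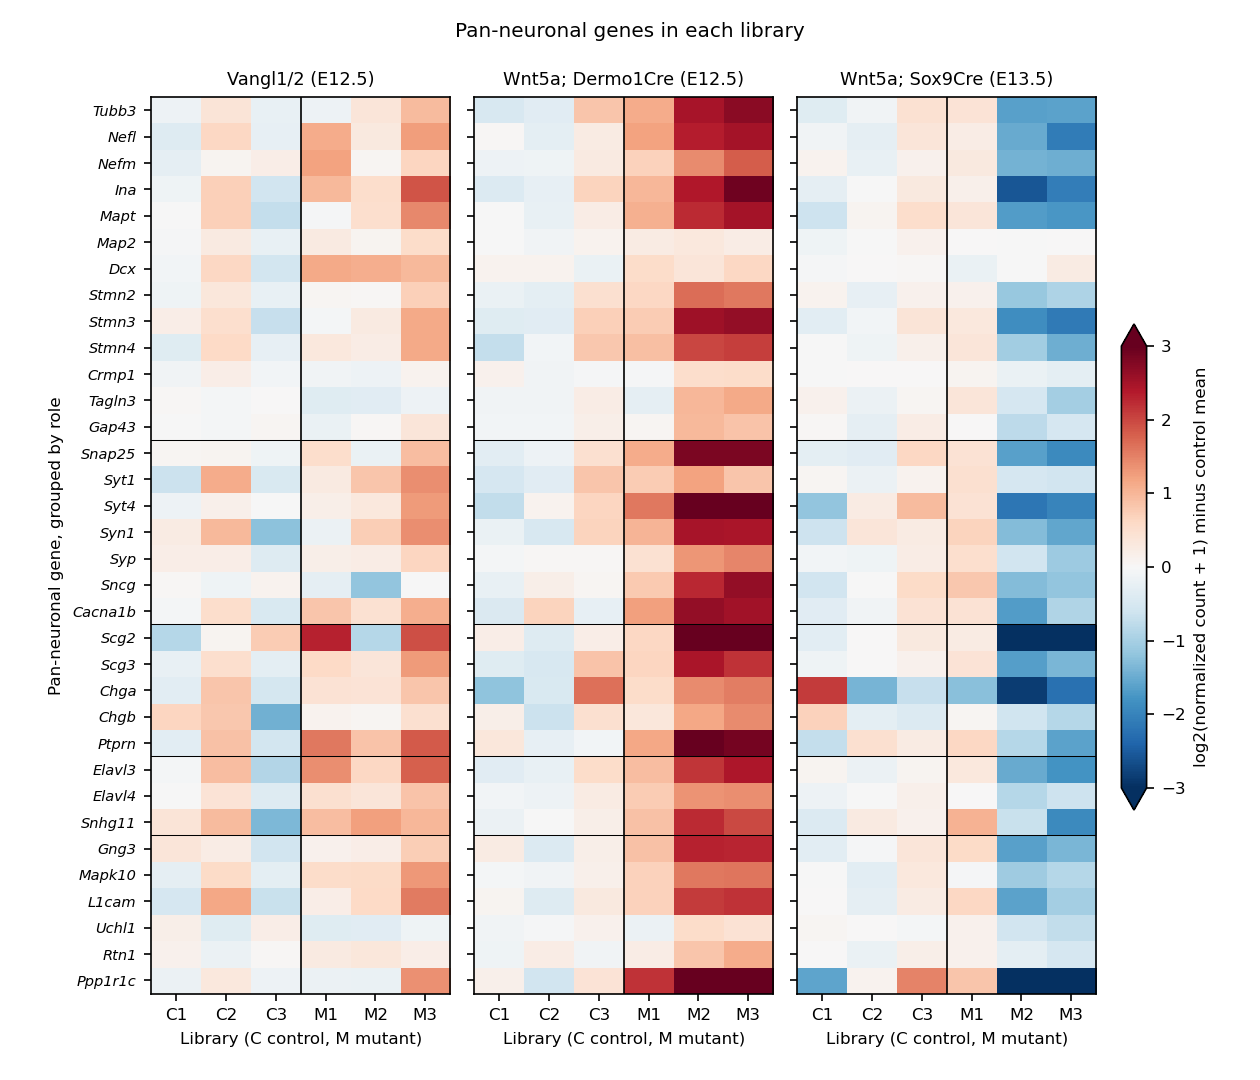
Heat map of the 34 pan-neuronal genes (rows, grouped by role) in the 18 libraries (columns, C control and M mutant), coloured by log2(normalized count + 1) minus the mean of the 3 controls of the same experiment; colours saturate beyond 3. With Dermo1Cre, mutants 2 and 3 are red in all 34 rows and mutant 1 is paler, while with Sox9Cre mutants 2 and 3 are blue in most rows and mutant 1 looks like the controls.

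The Dermo1Cre mutants were not alike. The median deviation of the 34 genes from the control mean was 0.754 (log2) in mutant 1, 2.12 in mutant 2 and 2.12 in mutant 3. Mutant 1 was the lowest mutant for 32 of 34 genes, and still above every control for 25. Relative to the control mean, the median gene stood at 1.67 times in mutant 1 and at 4.37 times over mutants 2 and 3. Among the controls, control 3 was the highest for 26 of 34 genes. The heat map of all members by library shows both steps as whole columns.

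Cytoskeletal and growth-cone genes gave 10 of 13 members whose Dermo1Cre groups did not overlap. Here and in the roles below, the share over all genes tested was 7.65% higher and 7.92% lower. Dcx, which encodes the microtubule-binding doublecortin, had 942, 937 and 759 normalized counts in controls and 1273, 1121 and 1344 in mutants. Map2, a dendritic microtubule-associated protein gene, had 651, 616 and 712 in controls and 786, 819 and 763 in mutants. In both genes every mutant exceeded every control by a small step. Gap43, a growth-cone gene, had 293, 292 and 348 in controls and 323, 605 and 562 in mutants, so mutant 1 lay within the control range. The neurofilament light gene Nefl had 86.2, 68.2 and 99.1 in controls and 195, 435 and 479 in mutants. For the internexin gene Ina the values were 19.0, 21.1 and 40.6 in controls and 51.4, 139 and 200 in mutants. In both filament genes the groups were separate, with mutant 1 between the controls and the other mutants. Tubb3 went from 104 ± 56.8 (SD, n = 3) to 455 ± 219 (SD, n = 3), 4.37 times. Stmn3, a microtubule-destabilizing stathmin gene, had the second largest ratio of means in this role, 4.42 times, after Ina with 4.83. The ratios of Nefm (2.60), Mapt (4.18), Stmn2 (2.5) and Stmn4 (3.15) lay below these, and Crmp1 (1.29) and Tagln3 (1.68) overlapped between groups.

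Of the 7 synaptic vesicle genes 6 stood apart. Sncg, which encodes gamma-synuclein, had 37.1, 49.2 and 45.6 normalized counts in Dermo1Cre controls and 75.6, 214 and 275 in mutants. Syt4, a synaptotagmin gene, had 12.0, 22.1 and 32.7 in controls and 63.5, 198 and 216 in mutants. Syp, which encodes synaptophysin, had 47.1, 50.2 and 50.5 in controls and 67.6, 125 and 138 in mutants. All 3 had their lowest mutant value in mutant 1 and no overlap. The ratio of means was 7.15 for Syt4, the largest of the role, 5.49 for the SNARE gene Snap25, 4.88 for the N-type calcium channel gene Cacna1b and 4.35 for Syn1. Syt1, the fast calcium sensor of release, was the exception, with 29.9 ± 17.1 (SD, n = 3) against 53.3 ± 9.81 (SD, n = 3) and overlapping groups.

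Of the 4 dense-core granule genes tested, 1 stood apart. Scg3, a granin-sorting gene, had 13.0, 12.0 and 31.7 in Dermo1Cre controls and 27.2, 98.2 and 79.9 in mutants. Ptprn, which encodes the granule membrane protein IA-2, had 11.0, 7.03 and 7.93 in controls and 20.2, 92.3 and 68.9 in mutants. Chga, the chromogranin A gene, had 5.01, 9.03 and 42.6 in controls and 19.2, 35.7 and 38.9 in mutants. Ptprn alone of these 3 had separate groups, while in Chga control 3 was above every mutant. Chgb overlapped as well, at 14.0 ± 5.48 against 28.3 ± 10.1 (SD, n = 3). Scg2, listed here although it missed the minimum, had 2.0, 1.0 and 1.98 in controls and 3.03, 26.8 and 24.0 in mutants. Of the 4 genes whose promoters held the cAMP response element, Chgb thus overlapped between groups. Syn1 and Mapk10 did not, nor did Scg2, which missed the minimum. Of all members tested, with or without the element, 24 of 33 were higher without overlap, as were 7.65% of all genes.

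All 3 genes of the RNA-binding and noncoding role had separate groups with Dermo1Cre. Elavl3 had 23.0, 25.1 and 43.6 in controls and 56.5, 134 and 161 in mutants. Elavl4, its paralog that binds AU-rich messages, had 71.1, 67.2 and 89.2 in controls and 128, 193 and 200 in mutants. Snhg11, a noncoding host of small nucleolar RNA that is abundant in neurons, had 45.1, 51.2 and 58.5 in controls and 94.8, 245 and 207 in mutants. In each, mutant 1 was the lowest of the mutants and above the highest control.

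Of the signalling, adhesion and other genes, 4 of 6 stood apart. Uchl1, which encodes an abundant ubiquitin hydrolase of neurons, had 465, 495 and 555 in Dermo1Cre controls and 449, 736 and 684 in mutants. Rtn1, a reticulon gene of the endoplasmic reticulum, had 236, 301 and 237 in controls and 301, 456 and 555 in mutants. L1cam, an axonal adhesion molecule gene, had 65.1, 47.2 and 76.3 in controls and 101, 266 and 282 in mutants. Only L1cam of these 3 was free of overlap, since mutant 1 was below every control for Uchl1 and level with control 2 for Rtn1. The ratio of means was 3.90 for Gng3, a G-protein gamma subunit gene, and 2.61 for Mapk10, both without overlap. Ppp1r1c, a phosphatase inhibitor gene named here after its values were seen, had 4.01, 2.01 and 4.95 in controls and 19.2, 62.5 and 59.9 in mutants.

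**Figure D2:**
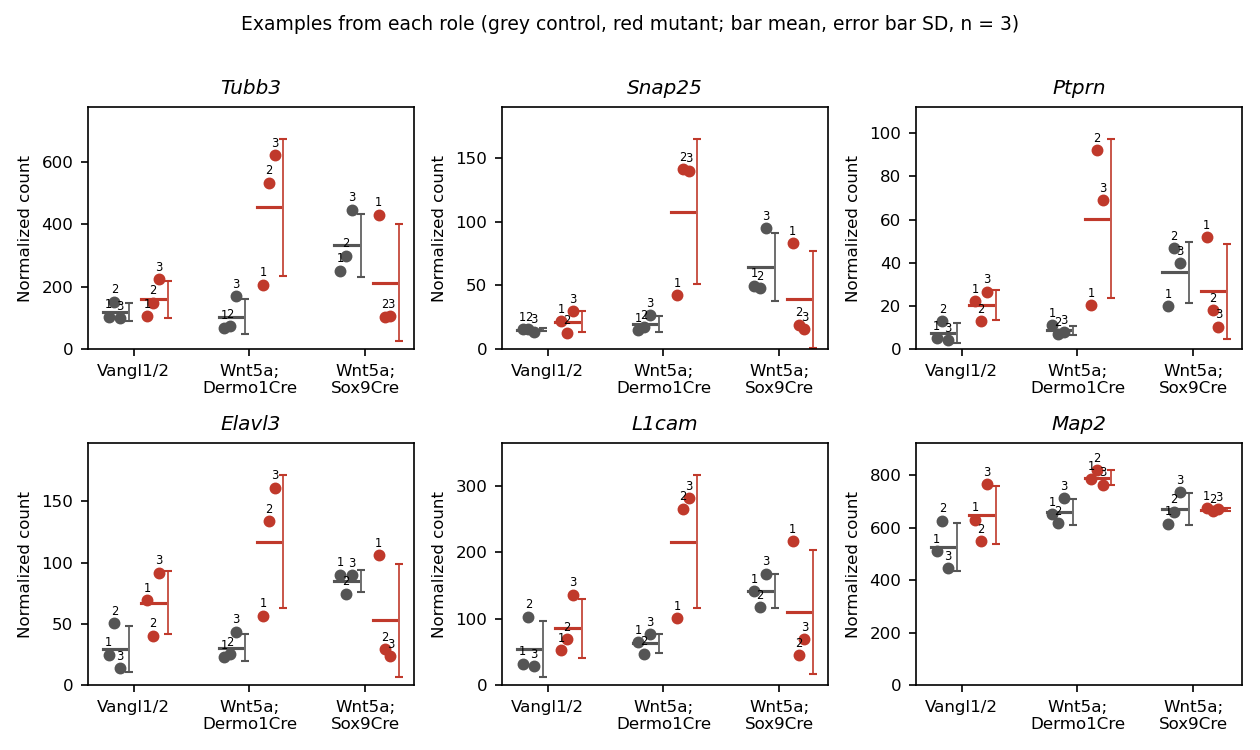
Normalized counts of 6 genes in each library of the 3 experiments (grey controls, red mutants, numbers the library); the horizontal bar is the mean and the error bar 1 SD, n = 3. Tubb3, Snap25, Ptprn, Elavl3 and L1cam separate the Dermo1Cre groups with mutant 1 lowest, and with Sox9Cre their mutant 1 sits among or above the controls, whereas Map2 varies little.

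The members with the highest level per kilobase of transcript in control lung differed least on the median. The 7 genes whose mean in Dermo1Cre controls was at least 60 normalized counts per kilobase (Map2, Dcx, Stmn2, Crmp1, Gap43, Uchl1 and Rtn1) had log2 differences of 0.26 to 1.29 with a median of 0.50, and the other 27 had 0.62 to 3.26 with a median of 1.83. This threshold was chosen after the values were seen. Per kilobase of transcript, control levels ran from 0.661 normalized counts for Scg2 to 429 for Uchl1. The cells that hold the larger part of these 7 transcripts in control lung were not identified.

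The Sox9Cre contrast is not the one that led to the set, although its results too were known when the genes were chosen. In it, 33 of the 34 log2 differences were below 0 and the remaining one was that of Dcx (0.01). The median over the 33 genes tested was -0.67, beside 0.0013 for all 14293 genes tested. No member was called by limma at an adjusted p under 0.05 (0.0% of all genes were), nor by edgeR or DESeq2, and 2 had an unadjusted p under 0.05, both lower in mutants, where 2.81% of all genes were lower and 1.08% higher at that level. No member had separate groups, where 4.42% of all genes tested were higher and 4.36% lower without overlap. The smallest adjusted p of a member was 1.0.

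The overlap came from mutant 1. For 17 of the 34 genes it lay within the range of the 3 controls, for 16 above it, and for Dcx below it. Mutants 2 and 3 lay below every control for 32 of 34 genes, Map2 and Dcx being the exceptions. The median deviation from the control mean was 0.342 (log2) in mutant 1, -1.30 in mutant 2 and -1.37 in mutant 3. Relative to the control mean, the median gene was at 1.22 times in mutant 1 and at 0.398 times over mutants 2 and 3. Over all genes tested, the same deviations had medians of -0.0033, 0.0043 and 0.008.

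When mutant 1 was left out, limma called 8 of 33 members at an adjusted p under 0.05, all lower, among 13 genes called in all (0.091% of those tested). These were Nefm, Ina, Elavl3, Nefl, Stmn2, Stmn3, Tubb3 and Uchl1, with log2 differences from -0.66 for Uchl1 to -2.32 for Ina. An unadjusted p under 0.05 was then reached by 30 members, against 5.97% of all genes in the same direction, and 31 members had separate groups, against 13.2% of all genes. The median went to -1.29. Without mutant 2 it was -0.44, without mutant 3 it was -0.50, and in neither case did any member have an unadjusted p under 0.05, where 1.9% and 3.65% of all genes were lower at that level. Leaving out any one control changed no call and gave medians of -0.57 to -0.81. At an unadjusted p under 0.05, 1 member was lower without control 1, 3 without control 2 and 1 without control 3, where 1.78%, 2.62% and 1.55% of all genes were.

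By role, the values with Sox9Cre were as follows. Ina had 92.2, 110.0 and 137 normalized counts in controls and 124, 18.1 and 25.6 in mutants (log2 difference -1.49, unadjusted p = 0.0366 and adjusted p = 1.0 by limma). Nefl had 250, 221 and 344 in controls and 313, 93.5 and 61.5 in mutants. Tubb3 was 333 ± 102 in controls and 213 ± 189 (SD, n = 3) in mutants. In each, mutant 1 was as high as the controls and the other mutants lay far below. Map2 had 615, 661 and 734 in controls and 673, 662 and 669 in mutants, and Dcx 971, 1011 and 1017 against 866, 997 and 1191. Gap43 had 490.0, 393 and 556 in controls and 475, 273 and 337 in mutants. For Map2 and Dcx the difference of the means was smaller than the SD of the controls, while Gap43 had mutants 2 and 3 below the controls.

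Among vesicle genes, Sncg had 75.3, 113 and 170.0 in Sox9Cre controls and 200, 45.3 and 49.2 in mutants. Syt4 had 34.7, 94.6 and 155 in controls and 109, 17.1 and 19.5 in mutants. Syp had 85.2, 81.6 and 105 in controls and 128, 60.4 and 42.0 in mutants. In all 3, mutants 2 and 3 were the lowest libraries of the table. Elavl3 showed the same order with little spread in controls, 90.2, 74.7 and 89.8 against 106, 29.2 and 23.6. Elavl4 had 128, 141 and 157 in controls and 142, 77.5 and 92.3 in mutants, and Snhg11 had 72.4, 116 and 105 against 198, 60.4 and 24.6. L1cam had 142, 117 and 168 in controls and 217, 45.3 and 68.7 in mutants, and Uchl1 had 670.0, 654 and 619 against 712, 434 and 387. For Rtn1 the step was smaller, 457, 398 and 514 against 500.0, 372 and 321. Scg2 and Ppp1r1c were at 0 in mutants 2 and 3.

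Chga had the smallest unadjusted p of the members with Sox9Cre, 0.0328 (limma; adjusted p = 1.0), and 1 control decided its size. Its values were 245, 20.9 and 34.9 in controls and 23.4, 7.04 and 11.3 in mutants, a log2 difference of -2.11, which became -1.06 without control 1. In that control Dbh, the noradrenaline-synthesizing enzyme gene, was at 118 normalized counts against 9.96 and 17.0 in the other controls, and Th, the tyrosine hydroxylase gene, at 43.6 against 8.96 and 5.99, genes named after their values were seen. Their part in the Chga difference was not tested. The other granule genes followed the general order. Ptprn had 19.8, 46.8 and 39.9 in controls and 51.7, 18.1 and 10.3 in mutants, and Scg3 had 42.6, 46.8 and 50.9 against 62.5, 14.1 and 17.4. Chgb was 32.8 ± 15.4 against 22.9 ± 8.26 (SD, n = 3).

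**Figure D3:**
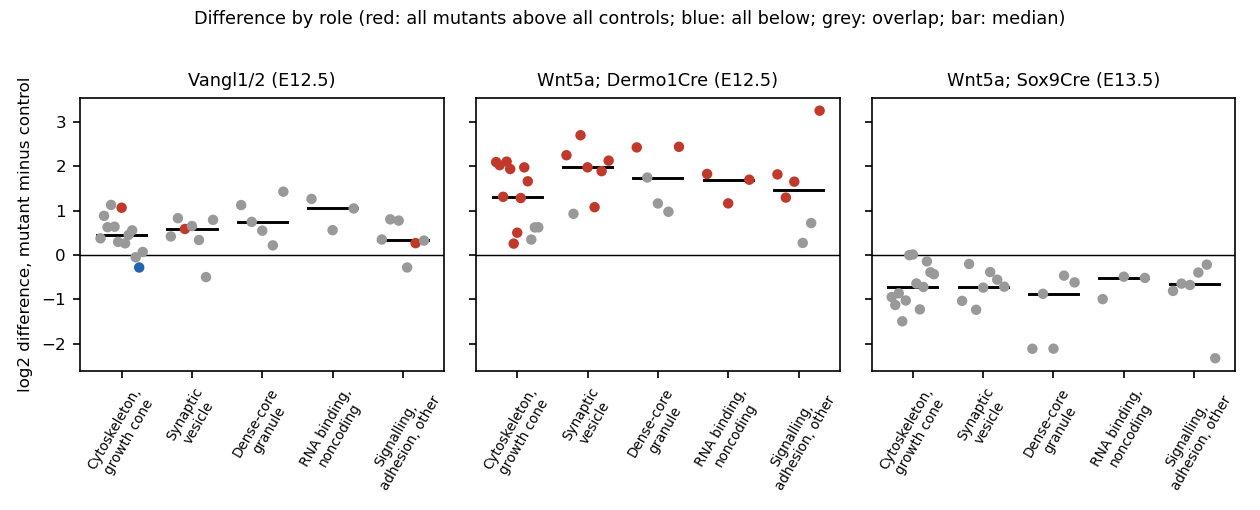
Log2 difference (mutant mean minus control mean of log2(normalized count + 1)) of each of the 34 genes, by role, in the 3 experiments; red points have all mutants above all controls, blue all below, grey overlap, and the black bar is the median of the role. All points are above 0 with Dermo1Cre, 33 of 34 are below 0 with Sox9Cre without separate groups, and with Vangl2 loss 30 are above 0.

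The Vangl contrast did not lead to the set either, and its results were likewise known when the genes were chosen. In it, 30 of 34 log2 differences were above 0 and those of Crmp1, Tagln3, Sncg and Uchl1 below. The median of the 32 genes tested was 0.56, beside -0.0093 for all 14303 genes tested. No member was called at an adjusted p under 0.05 by limma (smallest adjusted p = 0.233; 0.00699% of all genes were called), nor by edgeR or DESeq2. At an unadjusted p under 0.05, 8 of 32 members were higher, where 12.0% of all genes were, and 0 were lower, where 8.56% were. The groups were separate for 3 members higher in mutants, Dcx, Syt4 and Rtn1, where 13.6% of all genes tested were, and for Tagln3 lower, where 8.68% were.

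Dcx had the smallest p of the members in the Vangl table, with 826, 1352 and 594 normalized counts in controls and 1932, 1855 and 1705 in mutants (log2 difference 1.07, SE 0.258, unadjusted p = 0.00321 and adjusted p = 0.233 by limma). Every mutant exceeded every control. Ptprn had 5.16, 13.0 and 4.20 in controls and 22.1, 12.8 and 26.6 in mutants (unadjusted p = 0.0170 by limma). Nefl had 62.0, 124 and 68.3 in controls and 175, 99.5 and 193 in mutants (unadjusted p = 0.0273 by limma). In both, control 2 was within the range of the mutants. Elavl3 had 24.8, 50.3 and 13.7 in controls and 69.4, 40.4 and 91.6 in mutants (unadjusted p = 0.0287 by limma). Ina had 17.6, 32.6 and 12.6 in controls and 39.2, 28.6 and 73.9 in mutants, and Mapk10 had 23.8, 42.9 and 23.1 against 42.3, 43.4 and 71.9. These again overlapped through control 2. Rtn1 (0.27) and Elavl4 (0.56) were the other 2 with an unadjusted p under 0.05, at 0.0407 and 0.0440 by limma. The adjusted p of all 8 lay between 0.233 and 0.240.

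The other members followed in every library had overlapping Vangl groups, apart from Rtn1 and Syt4. Map2 had 510.0, 626 and 445 in controls and 630.0, 548 and 764 in mutants. Gap43 had 322, 312 and 335 in controls and 283, 332 and 417 in mutants. In both, 1 or more mutants lay within the range of the controls or below it. Rtn1 had 598, 488 and 567 in controls and 666, 690.0 and 633 in mutants, a small step with no overlap. Uchl1 had 611, 423 and 625 in controls and 421, 431 and 499 in mutants, and L1cam had 32.0, 103 and 28.4 against 52.3, 69.0 and 136. Control 2 was the lowest control for Uchl1 and the highest for L1cam.

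Of the vesicle genes in the Vangl table, Sncg had 60.9, 55.0 and 64.1 in controls and 49.3, 25.6 and 59.1 in mutants. Syt4 had 13.4, 16.8 and 14.7 in controls and 17.1, 18.7 and 37.4 in mutants. Syp had 54.7, 54.1 and 35.7 in controls and 53.3, 55.2 and 73.9 in mutants. Syt4 was free of overlap by less than 1 normalized count, and the other 2 overlapped. Among granule and RNA-binding genes, Scg3 had 15.5, 26.1 and 14.7 against 28.2, 23.6 and 45.3, and Chga had 6.20, 14.9 and 5.25 against 11.1, 10.8 and 14.8. Elavl4 had 96.1, 130 and 73.6 in controls and 136, 125 and 176 in mutants, and Snhg11 had 37.2, 55.0 and 10.5 against 54.3, 67.0 and 57.1. In all 4 the highest control was control 2. Over the 34 genes, control 2 was above the other controls for 25, and mutant 3 was the highest of the 6 libraries for 23. Scg2 and Ppp1r1c stayed under 10 normalized counts in every library.

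Much of the overlap in this table was with control 2. Without it, limma called 14 of 32 members, 13 higher and Uchl1 lower, but also 6183 of all 14303 genes (43.2%). The groups were then separate for 19 members higher in mutants, where 31.2% of all genes were, and for 3 lower, where 32.3% were, and the median was 0.74. At an unadjusted p under 0.05, 16 members were higher, where 25.2% of all genes were, and 1 lower, where 25.4% were. Without mutant 2, 10 members were higher at that level, where 6.4% of all genes were, and 13 were higher with separate groups, where 18.1% were. Without mutant 1, 3 members were higher at that level, where 6.42% of all genes were, and 6 were higher with separate groups, where 17.8% were. The count higher at that level was 2 without control 1, 1 without control 3 and 1 without mutant 3, where 3.73%, 5.29% and 5.26% of all genes were. The median was lowest without mutant 3 (0.28) and without control 3 (0.33).

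**Figure D4:**
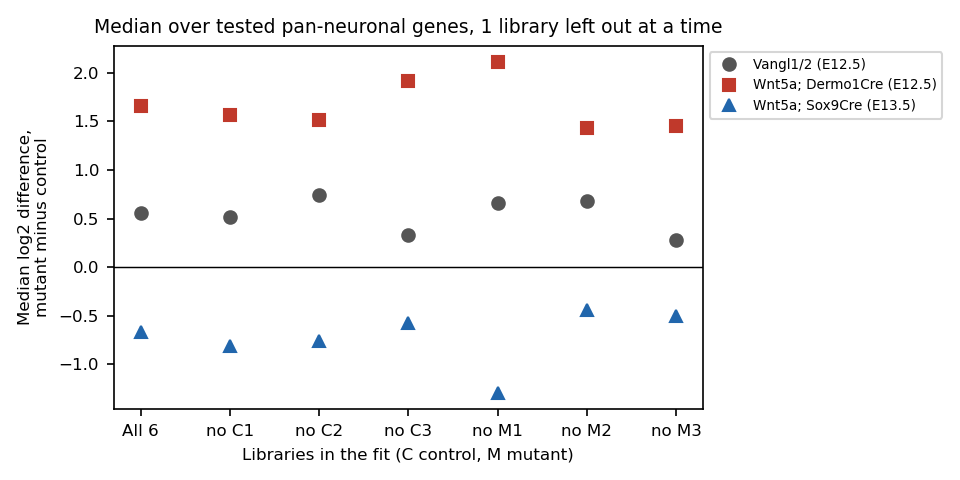
Median log2 difference (mutant minus control, y axis) of the pan-neuronal genes tested, with all 6 libraries of an experiment and with each library left out in turn (x axis; C control, M mutant). The Dermo1Cre medians stay between 1.43 and 2.11, the Vangl medians between 0.28 and 0.74 and the Sox9Cre medians between -1.29 and -0.44, so none crosses 0.

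Within groups, the SD of most of these genes was above the median of all genes tested. Genes were not matched by level, and the part of low counts in this was not tested. The median SD between the 3 Sox9Cre mutants was 1.07 (log2) for the 33 members tested and 0.122 for all genes tested. Between the Dermo1Cre mutants it was 0.726 and 0.095. The controls of these tables gave 0.282 and 0.084 for Sox9Cre and 0.348 and 0.086 for Dermo1Cre. In the Vangl table the values were 0.494 and 0.217 in controls and 0.448 and 0.101 in mutants. In every one of the 6 groups at least 25 members were above the median of all genes.

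Markers of the neurons that reach the lung are given beside these differences. The summed level of 7 sensory neuron markers was 130, 131 and 159 normalized counts in Dermo1Cre controls and 257, 542 and 490 in mutants, and 267, 307 and 378 against 386, 140 and 131 with Sox9Cre. The pan-neuronal sum was 4072, 4053 and 4632 against 5711, 9396 and 10020.0 with Dermo1Cre, and 6766, 6510 and 7837 against 7812, 4375 and 4479 with Sox9Cre. Such a sum is weighted toward its highest genes, in Dermo1Cre controls Dcx, Map2 and Uchl1. Their log2 differences there (0.505, 0.259 and 0.274) lay below the median of the members tested, 1.66. In both tables and for both sums, mutant 1 stood nearer the controls than mutants 2 and 3 did. P2rx3, a channel of visceral sensory neurons, had 21.0, 16.1 and 20.8 against 41.3, 160.0 and 164 with Dermo1Cre, and 17.8, 89.6 and 113 against 95.6, 5.03 and 10.3 with Sox9Cre. It was named after its values were seen. The 8 autonomic markers overlapped, with 316 to 579 in Dermo1Cre controls and 448 to 661 in mutants, and 513 to 821 against 338 to 537 with Sox9Cre. The 8 glial markers summed to 813 to 873 in Dermo1Cre controls and 848 to 1066 in mutants, and to 916 to 937 against 671 to 1050 with Sox9Cre. The 8 central nervous system markers summed to at most 99 in any library, with Olig2 and Neurod2 at 0 in all 18. In the Vangl table the sums were 165 to 182 against 167 to 258 for sensory, 289 to 607 against 487 to 706 for autonomic and 753 to 1129 against 891 to 1283 for glial markers. No sensory, autonomic or glial marker in the tables was at 0 in all libraries of an experiment.

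**Figure D5:**
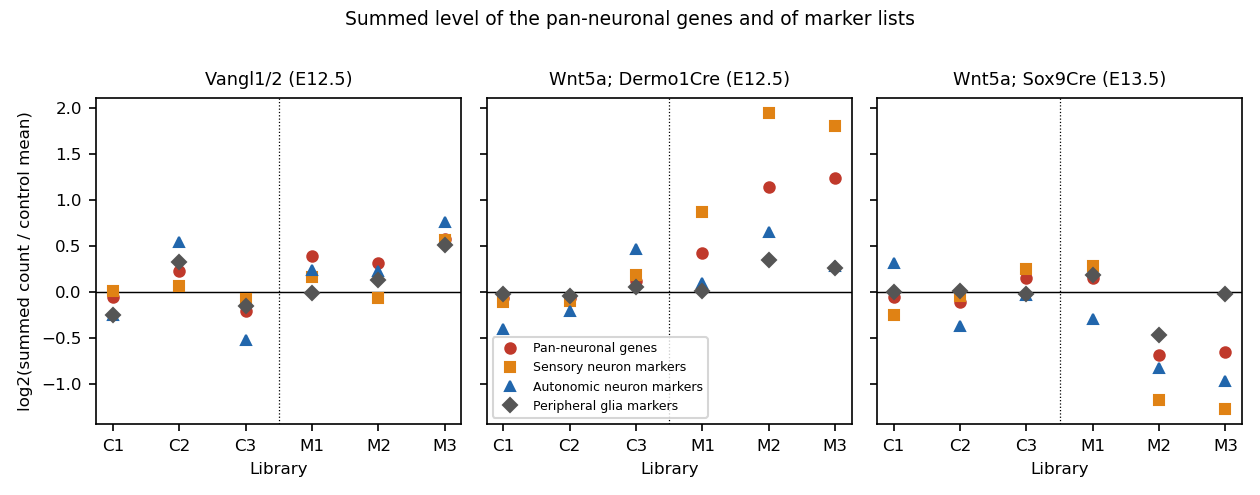
Summed normalized counts of the 34 pan-neuronal genes and of the sensory, autonomic and glial marker lists in each library (x axis; C control, M mutant), as log2 of the ratio to the mean of the 3 controls of the same experiment. With Dermo1Cre the sensory point lies above the pan-neuronal point in every mutant, and with Sox9Cre both are below the controls in mutants 2 and 3 but not in mutant 1. Sums are weighted toward the genes with the most counts, so the order of these points need not hold for a typical gene. The median log2 deviation of the 34 genes was 0.754, 2.12 and 2.12 in Dermo1Cre mutants 1, 2 and 3.

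Markers of heart muscle varied too. Their summed level over 8 genes was 1248 to 18107 in Dermo1Cre controls and 792 to 3968 in mutants, 4590 to 16491 against 943 to 5031 with Sox9Cre, and 1460 to 4110 against 518 to 6574 in the Vangl table. Mutants 2 and 3 with Sox9Cre, the libraries low in pan-neuronal transcripts, were also the 2 lowest in this sum, at 2516 and 943. With Dermo1Cre the highest pan-neuronal library, mutant 3, was the lowest in it, at 792, while mutant 2, with a pan-neuronal sum of 9396, stood at 3968. In both Wnt5a tables control 3 was the highest control in the pan-neuronal sum and in the heart muscle sum, the latter at 18107 and 16491. Epithelial markers summed to 12527 to 13254 in Dermo1Cre controls and 11612 to 11811 in mutants, and neuroendocrine markers, which share granule genes with neurons, to 119 to 163 against 116 to 180. The part of these tissues in the pan-neuronal differences was not tested.

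Other genes of the neuronal program, 48 effector genes and 18 regulators on lists drawn up with earlier results of these data known, had smaller median differences. With Dermo1Cre, 19 of 45 effector genes tested were higher without overlap and 0 lower (median log2 difference 0.38), and of 13 regulators 3 were higher and 4 lower, where 7.65% of all genes were higher and 7.92% lower. Prph, the peripheral neuron filament gene, had 43.1, 28.1 and 71.3 in controls and 125, 380.0 and 456 in mutants. Vgf, a neuropeptide precursor gene, had 6.01, 2.01 and 2.97 against 7.06, 34.7 and 48.9, and Pcsk2, a prohormone convertase gene, 4.01, 2.01 and 3.96 against 10.1, 41.7 and 26.0. Neurod1, a neuronal differentiation factor gene, had at most 0.991 in controls and 1.01, 8.93 and 20.0 in mutants. All 4 had their lowest mutant value in mutant 1.

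With Sox9Cre, 0 of these 60 other genes tested were called by limma at an adjusted p under 0.05, nor by edgeR or DESeq2. At an unadjusted p under 0.05, 7 of 46 effector genes were lower and 0 higher, and 2 of 14 regulators were lower and 1 higher, where 2.81% of all genes were lower and 1.08% higher. Ebf1, a transcription factor gene, had 173, 126 and 148 in controls and 95.6, 107 and 117 in mutants (unadjusted p = 0.0108 by limma). Map1b, a microtubule-associated protein gene of axons, had 1964, 1984 and 2339 against 1844, 1626 and 1774, and Celf4, a neuronal RNA-binding protein gene, 279, 206 and 226 against 197, 180.0 and 159. Cpe, which encodes carboxypeptidase E, had 1155, 847 and 1061 against 881, 682 and 711. Apart from Cpe, mutant 1 was below the controls in these. They were chosen by the smallest p in the fit with mutant 1, so this gives no contrast with the pan-neuronal members. Without mutant 1, 1 of the 60 other genes was called, as were 0.091% of all genes.

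In the Vangl table, 0 of 57 other genes tested were called at an adjusted p under 0.05 by limma, edgeR or DESeq2, and 25 were called without control 2, as were 43.2% of all genes. At an unadjusted p under 0.05, 5 of 44 effector genes and 2 of 13 regulators were higher and 0 lower, where 12.0% of all genes were higher and 8.56% lower. Rest, which encodes the repressor of neuronal genes in other cell types, had 343, 668 and 428 in controls and 813, 794 and 787 in mutants (log2 difference 0.79, unadjusted p = 0.00657 and adjusted p = 0.233 by limma). Elavl2, a relative of Elavl3, had 130, 191 and 128 against 226, 200 and 255. Dpysl5, a growth-cone gene, had 427, 455 and 359 against 581, 456 and 615. Map1b had 878, 1857 and 732 against 1600.0, 1868 and 2187. The first 3 had separate groups and Map1b overlapped through control 2.

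Some members overlap the exons of another gene. Nefl and Nefm overlap on opposite strands over 1108 exon bases, and Gng3 overlaps Bscl2 and Ina overlaps Nt5c2 in the same way. Whether counting used the strand is not given in the sources used here, so reads of these pairs may be exchanged.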

How the data were processed

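RNA was extracted from whole mouse lungs (TRIzol and RNeasy) and sequenced on an Illumina HiSeq instrument. Per the labels' processing notes, the authors trimmed reads with Trim Galore, aligned them to mm10 with HISAT2, counted them per gene with featureCounts and normalized them with DESeq2, no versions being given. The deposited tables hold, per library, a normalized signal, that is read counts divided by a size factor set within each table, so levels were not compared between tables. Their remaining columns, the authors' own mean, fold change and p-value, were not used. Dividing out each library's step gave whole reads for 100.0% of values (within 0.001 of a read), 15945393 to 19814346 per library, with size factors of 0.9516 to 1.0731. Of the gene names, 27 had been turned into dates and 2 were listed more than once.

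The 34 genes, their roles and the other lists were chosen with earlier results of these data known. Each table was fitted by itself with limma 3.58.1 (R 4.3.3, mean-variance trend) on log2(normalized count + 1), over genes that reached 10 normalized counts in 3 or more of the 6 libraries, with Benjamini-Hochberg adjustment over all genes tested and a threshold of 0.05, two-sided. With 3 against 3, an exact permutation test of a single gene cannot go below 0.1. The script was tested on simulated data. Alternatives were edgeR 4.0.16 (quasi-likelihood, TMM) and DESeq2 1.42.0 on the recovered reads, TMM scaling, no minimum, a minimum of 50, a pseudocount of 5, a replicate block, removal of a trend on transcript length, and each library left out in turn. Values in every library were given for the 3 members of each role highest over the Dermo1Cre libraries and for those with the smallest unadjusted p (at most 6 per experiment). Of the other neuronal genes, those with the 4 smallest p, or the 4 largest differences with Dermo1Cre, were named. Promoters are RefSeq windows of GRCm38.p6, the assembly called mm10, searched with Python 3.11.15.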

Additional observations from a re-analysis of the deposited data

How the results depend on the processing

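Depth was even, and low counts limit Scg2 and Ppp1r1c most. With 3 libraries a group, single libraries decided several values. Leaving out each in turn gave 0 to 14 members called in the Vangl table and 0 to 8 with Sox9Cre. Other neuronal genes called numbered 0 to 25 and 0 to 1. The highest counts came without Vangl control 2, where 43.2% of all genes were called, and without Sox9Cre mutant 1, where 0.091% were. The log2 difference of Vangl2 ran from -2.10 to -1.82, and its adjusted p was over 0.05 in 5 of these 6 fits. Among members, the log2 differences of such fits crossed 0 in the Vangl table for Gap43 (-0.08 to 0.20), Crmp1 (-0.13 to 0.05) and Chgb (-0.50 to 0.62). With Sox9Cre they did so for Snhg11 (-1.29 to 0.19), Dcx (-0.11 to 0.12) and Map2 (-0.06 to 0.07). The sign also turned in the Vangl table with the trend on transcript length removed for Map2 (-0.01), Tagln3 (0.04) and Uchl1 (0.05), and for Chgb with edgeR (-0.08) and DESeq2 (-0.07). The cause was not tested. The Dermo1Cre count without overlap was 16 to 31 over all alternatives and the median of the members 1.31 to 2.11. The genes tested and the libraries compared differed between these fits. The share over all genes was taken only for the first fit, at 7.65% higher and 7.92% lower. The range of counts therefore does not show how far the members stood out in each fit. DESeq2 called 20 genes in the Vangl table and 9 with Sox9Cre, against 1 and 0 with limma, none of them members. In the Vangl table, members with an unadjusted p under 0.05 by limma were 5 with a minimum of 50, against 8, all higher. At that level 13.3% and 12.0% of all genes were higher. Members without overlap were 2 with the length trend removed, both higher, against 4. Of all genes, 6.79% were then higher without overlap and 5.32% lower, against 13.6% and 8.68%. With Sox9Cre, members with an unadjusted p under 0.05 were 1 with edgeR or a minimum of 50, against 2. They were 7 with the length trend removed. All of these were lower, where 2.61% (edgeR), 2.44% (minimum of 50), 3.46% (length trend removed) and 2.81% (limma as first fitted) of all genes were. With a pseudocount of 5, Ppp1r1c differed by 2.47 with Dermo1Cre.

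Replicate numbers recur in both arms of each table, but same-numbered libraries did not deviate together: the correlations were 0.30, 0.05 and 0.01 in the Vangl table, 0.07, -0.07 and -0.22 with Dermo1Cre and 0.05, 0.13 and -0.12 with Sox9Cre, and not every library correlated best with its own number. With the replicate number as a block, Vangl2 kept its log2 difference of -1.96 at an adjusted p of 0.0847 (limma), and 0 members were called in either tested table, as were 0.0% of all genes. At an unadjusted p under 0.05 by limma, 7 members were higher and 0 lower in the Vangl table, where 12.3% and 8.7% of all genes were. With Sox9Cre 0 were higher and 10 lower, where 1.62% and 3.71% of all genes were. The block left the medians at 0.56, 1.66 and -0.67. No blocked value was possible for the count without overlap.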
